A study of Mus musculus with 16 samples.

Results

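The levels of 10 genes of the cytokine receptors of colonic epithelial cells, and of the signalling below them, were compared across 4 groups of mice. They were *Il22ra1*, *Il10rb*, *Il17ra*, *Il17rc*, *Il1r1*, *Il6st*, *Il4ra* and *Il13ra1*, which encode receptor chains, with *Stat3* and *Socs3*. They were chosen by gene symbol, as 10 of the 22396 symbols listed for every mouse, and the rule used the symbols only. All 10 were listed, and 8 of them had a mean of at least 1 TPM (a transcript level normalised to the length of the transcript and to the library) both over the DSS mice and over the water mice. *Il17ra* and *Il1r1* did not.

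RNA was sequenced from sorted EpCAM+ cells of the distal colon of 16 mice, EpCAM being a surface protein of epithelial cells. Dextran sulfate sodium (DSS) in drinking water injures the colonic epithelium. By the paper's methods, injured areas of DSS colon were picked out under a stereomicroscope and parted from unaffected tissue before sorting. Every comparison of DSS with water is therefore also one of injured regions with uninjured colon, and the 2 cannot be told apart. Controls carried the floxed Tnfr2 allele alone (Tnfr2-f/f), and the mice labelled knockout carried it with Vil1::Cre, in which the villin promoter drives Cre recombinase in intestinal epithelium to remove exon 2 of the gene. Water was given to 4 controls and 5 mice labelled knockout, and DSS to 3 controls and 4 mice labelled knockout. The sample labels give 3% DSS for 6 days and dissection on day 12 for every mouse, whereas the study's methods give 3.5% DSS, mice of 8 weeks of age and uninjured colon at day 0. The DSS mice were all female, with 2 in cage c and 5 in cage d. Of the water mice, 4 males shared cage a and 5 females shared cage b, and cage and sex therefore cannot be told apart in water. No cage held both treatments, so treatment and cage cannot be told apart.

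Cytokine receptors of these families work as pairs of chains. IL-22 binds IL-22RA1 with IL-10RB, a chain that IL-10 and lambda interferons also use, IL-17A and IL-17F bind IL-17RA with IL-17RC, IL-6 family cytokines signal through gp130 (the product of *Il6st*), and IL-4 and IL-13 bind IL-4RA with IL-13RA1. Signals through gp130 and the IL-22 receptor activate the transcription factor STAT3, which in the gut epithelium is known for driving antimicrobial proteins and wound repair. SOCS3 is a product of STAT3 activity that binds gp130 and the attached kinases and shuts the signal off.

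The sequences before the RefSeq start sites are shown for the genes whose levels the results turn on, with *Stat3* itself. They are RefSeq promoter windows on GRCm38.p6, 5′ to 3′ on the gene's strand, searched over the 250 bases before the start. The letters TTCNNNGAA, the core that STAT3 prefers, and TTCNNNNGAA, the spacing that STAT6 prefers, read the same on both strands and were searched separately. RefSeq windows were found for 8 of the 10 genes, with 2 for *Il1r1*, and not for *Il10rb* and *Il17ra*. Capitals mark a match. Windows are printed up to the first base that GENCODE M21 annotates as untranslated exon of the gene.
Socs3 (chr11:117969367-117969616, minus strand): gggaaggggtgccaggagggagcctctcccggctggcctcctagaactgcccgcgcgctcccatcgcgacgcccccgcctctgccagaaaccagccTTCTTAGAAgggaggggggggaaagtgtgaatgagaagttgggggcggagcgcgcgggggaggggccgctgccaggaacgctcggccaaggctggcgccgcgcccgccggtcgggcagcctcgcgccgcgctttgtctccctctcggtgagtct
Stat3 (chr11:100939541-100939790, minus strand): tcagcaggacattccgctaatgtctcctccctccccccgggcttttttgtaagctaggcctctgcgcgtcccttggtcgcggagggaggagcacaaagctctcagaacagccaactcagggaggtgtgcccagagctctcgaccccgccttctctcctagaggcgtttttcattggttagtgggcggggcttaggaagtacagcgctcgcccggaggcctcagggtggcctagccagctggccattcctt
Il17rc (chr6:113471205-113471426, plus strand): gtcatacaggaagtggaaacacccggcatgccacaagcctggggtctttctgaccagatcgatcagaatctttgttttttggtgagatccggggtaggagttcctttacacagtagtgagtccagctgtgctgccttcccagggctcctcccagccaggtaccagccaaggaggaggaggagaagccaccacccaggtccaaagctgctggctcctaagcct
Il4ra (chr7:125552021-125552119, plus strand): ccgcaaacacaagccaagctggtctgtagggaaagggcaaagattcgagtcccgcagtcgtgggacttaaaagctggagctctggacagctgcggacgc

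*Socs3* lies at chr11:117966079-117970047 and *Stat3* at chr11:100885098-100939540, *Il17rc* at chr6:113471427-113483140 and *Il4ra* at chr7:125552120-125579474 (GRCm38), all protein-coding genes. The *Socs3* window lies inside the GENCODE span of the gene, upstream of the RefSeq start only, and 77 of its bases fall in an exon of a noncoding transcript. TTCNNNGAA was found in 1 of the 9 windows, that of *Socs3*, as TTCTTAGAA at chr11:117969512-117969520, whose first base lies 154 bases before the RefSeq start and in no exon of GENCODE M21. These letters occur in 7.02% of all 32851 mouse windows of this length. TTCNNNNGAA was found in 0 of the 9 windows and in 5.85% of all. A match is a description of these bases and was not tied to any measurement here, and a window without the letters says nothing of whether the factor binds there.

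The 2 tables, for DSS and for water mice, were scaled separately by the authors, so levels were set side by side after one rescaling of all 16 mice ("rescaled TPM"), with no test between the tables. Summed TPM of a mouse ranged from 487469 to 861109, the highest in water mouse 2 labelled knockout. *Tnfrsf1b*, the gene of TNFR2, was not called lower in the mice labelled knockout by limma. After DSS it had 16.5 ± 4.95 TPM in controls and 18.4 ± 6.02 in the mice labelled knockout (SD, n = 3 and 4, limma adjusted p = 1.00), and in water 13.9 ± 2.06 and 11.8 ± 2.30 (n = 4 and 5, limma adjusted p = 0.865). The mice are therefore called labelled knockout throughout. The listed transcript has 10 exons, so its TPM may still count reads from outside exon 2. By flow cytometry and quantitative PCR, the paper reports reduced TNFR2 in EpCAM+ cells of mice with Vil1-Cre and the floxed allele. All 16 epithelial markers checked were detected in every group, with a summed level of 6597 to 11752 rescaled TPM. The sums overlapped between treatments in controls (8431 to 11752 in water and 6639 to 9621 after DSS, 2 markers lower and 1 higher without overlap) and lay lower after DSS in the mice labelled knockout (8786 to 10806 and 6597 to 8139, 7 lower and 3 higher). Transcripts of other cells differed between treatments too. Macrophage and dendritic markers summed to 1424 to 3301 rescaled TPM in the water mice and 76.9 to 167 after DSS, and leukocyte markers to 292 to 776 and 30.1 to 82.2. For both lists 11 of 12 markers were lower after DSS without overlap of the mice in either genotype, and none was listed at 0. Neutrophil markers summed to 47.8 to 116 in water and 76.6 to 1746 after DSS. B and plasma cell markers summed to 639 to 16180 in water and 108 to 513 after DSS, and T cell markers, of which *Cd8a* and *Nkg7* were listed at 0 in every DSS mouse, to 13.2 to 50.1 and 0.0806 to 3.37. In controls, fibroblast sums (617 to 1061 and 114 to 415, 7 of 10 markers lower) and smooth muscle sums (40.02 to 57.1 and 14.5 to 32.5, 3 markers lower) were lower after DSS without overlap. For the mice labelled knockout, fibroblast sums (309 to 933 and 112 to 551) and smooth muscle sums (29.8 to 58.0 and 9.48 to 31.5) overlapped, and endothelial sums overlapped in both genotypes. In bulk RNA, fewer cells of a type and less RNA per cell cannot be told apart.

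**Figure D1:**
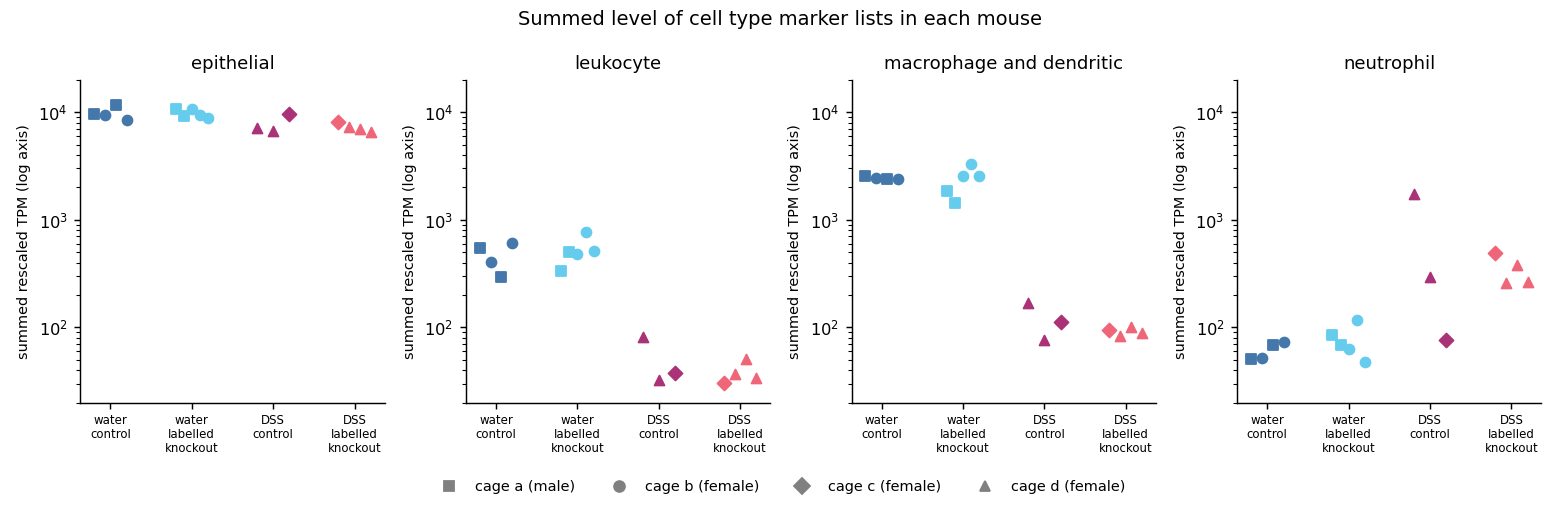
Summed rescaled TPM (log axis) of 4 marker lists in each of the 16 mice, by group, with 1 point a mouse and its shape giving the cage. Macrophage and dendritic markers lay between 1424 and 3301 in every water mouse and at or below 167 in every DSS mouse, while epithelial sums overlapped in controls and lay lower after DSS (at most 8139) than in water (at least 8786) in the mice labelled knockout.

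Within a mouse, the 10 genes can be set in order, since TPM is a level per length. In water controls *Socs3* led with 110.6 ± 12.5 rescaled TPM (SD, n = 4). It was followed by *Il10rb* (34.5 ± 3.57), *Stat3* (30.96 ± 5.15), *Il13ra1* (29.3 ± 1.92), *Il17rc* (20.5 ± 2.52), *Il6st* (15.7 ± 1.94), *Il4ra* (6.71 ± 1.80), *Il22ra1* (4.49 ± 0.761) and *Il17ra* (0.319 ± 0.126), with *Il1r1* listed at 0 in all 4. Of the 9 pairs of neighbours, 6 stood in this order in every mouse. *Il10rb*, *Stat3* and *Il13ra1* did not separate beyond their spread (3 of 4 mice for *Il10rb* above *Stat3*, 2 of 4 for *Stat3* above *Il13ra1*), and *Il4ra* exceeded *Il22ra1* in 3 of 4. In DSS controls *Socs3* no longer led: *Il13ra1* (37.7 ± 7.40, n = 3), *Stat3* (33.9 ± 4.65), *Socs3* (32.6 ± 10.9) and *Il10rb* (30.1 ± 6.94) lay together, with each of the first 3 above the next in 2, 1 and 1 of 3 mice. Among labelled-knockout mice the same 4 genes were highest after DSS, and *Socs3* was highest in each of the 5 given water.

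**Figure D2:**
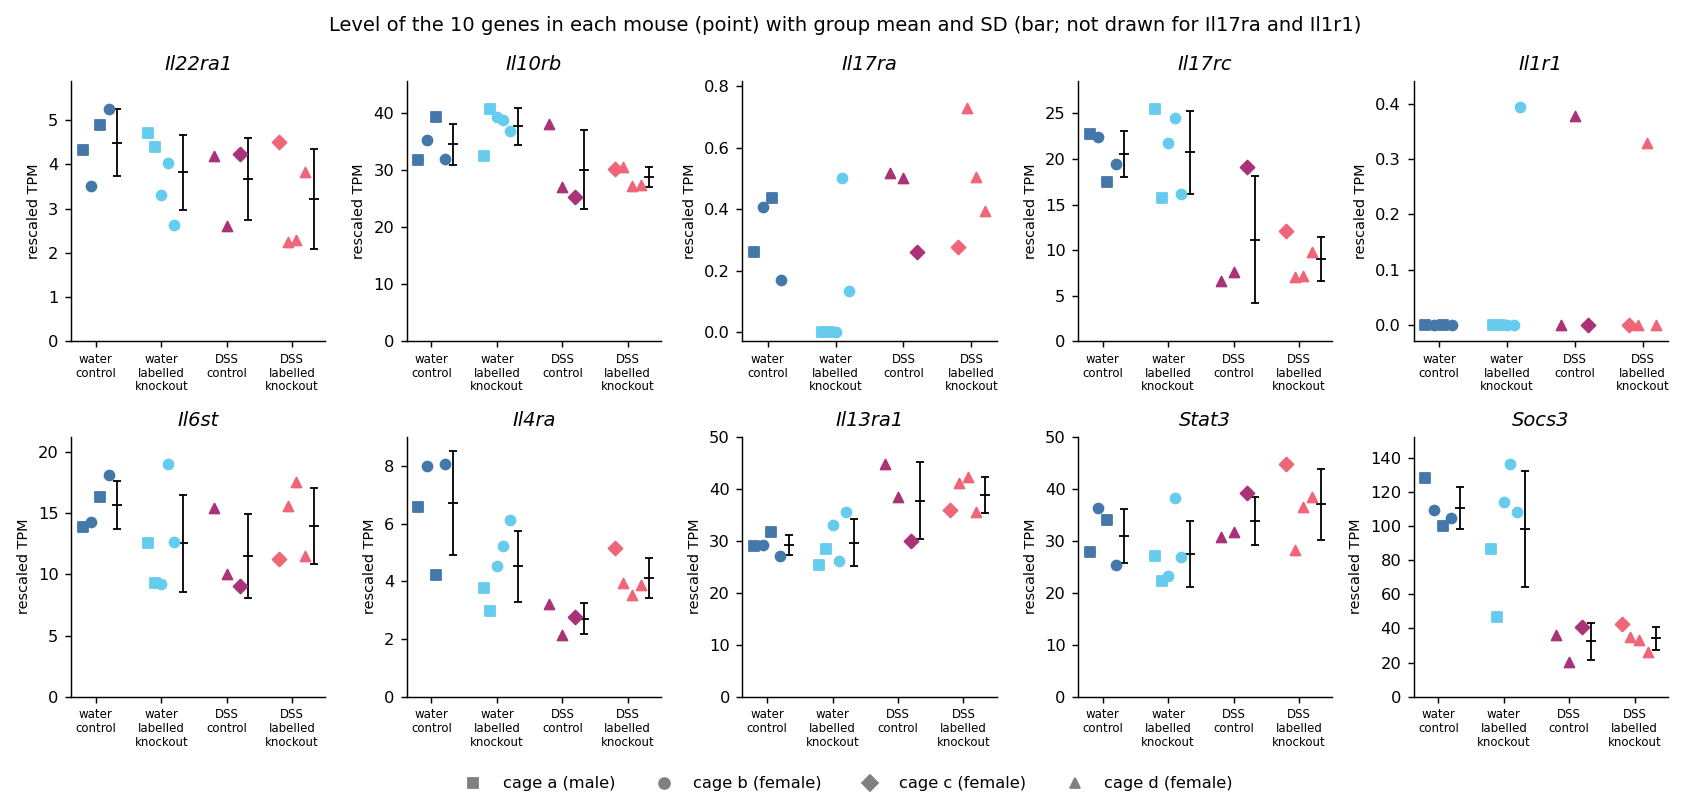
Rescaled TPM of the 10 genes in each mouse, by group, with 1 point a mouse, its shape giving the cage, and the group mean and SD beside the points (not drawn for *Il17ra* and *Il1r1*). The 9 water mice sat between 46.4 and 136 for *Socs3* and the 7 DSS mice between 20.3 and 42.8, whereas *Il22ra1* spanned 2.63 to 5.26 in water and 2.24 to 4.50 after DSS.

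*Socs3*, the feedback inhibitor, had the largest difference between treatments of the 8 genes after the rescaling of all mice. In rescaled TPM the 4 water controls had 128, 109.5, 99.99 and 104, and the 3 DSS controls 36.3, 20.3 and 41.1. The 5 water mice labelled knockout had 86.3, 46.4, 114, 136 and 108, and the 4 DSS mice 42.8, 34.9, 33.2 and 26.1. Every DSS mouse was thus below every water mouse, narrowly so between the lowest water mouse (46.4) and the highest DSS mouse (42.8). The mean level after DSS was 0.294 times that in water in controls and 0.348 times in the mice labelled knockout, a log2 difference of -1.79 (SE 0.31) and -1.43 (SE 0.30). In rank, *Socs3* stood at a median percentile of 96.8 among the 18010 genes above 0 in at least 1 mouse in water controls and 91.9 in DSS controls (96.7 and 91.3 in the mice labelled knockout). Under the 4 other scalings tried, and with females alone or a smaller pseudocount, the difference stayed between -1.82 and -1.43 in controls and between -1.79 and -0.87 in the mice labelled knockout. The other scalings moved the median over all genes by 0.17 to 0.51, and relative to that median the *Socs3* difference lay between -1.79 and -1.75 in controls and between -1.42 and -1.32 in the mice labelled knockout under all 5 scalings. In the latter the mice overlapped once TPM was left as deposited, rescaled to one common total, quantile normalized or ranked. Macrophage and dendritic markers moved the same way (above), and water mouse 2 labelled knockout was lowest of the water mice in both *Socs3* and the sum of these markers (1424). Their part in the *Socs3* difference was not tested.

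*Stat3*, the transcription factor, did not separate the treatments. Its rescaled TPM was 27.8, 36.4, 34.1 and 25.5 in water controls and 30.8, 31.7 and 39.3 in DSS controls. Among labelled-knockout mice it was 27.1, 22.4, 23.2, 38.3 and 26.9 in water and 44.8, 28.4, 36.5 and 38.6 after DSS. The DSS means were higher in both genotypes but the mice overlapped, with log2 differences of 0.13 (SE 0.16) and 0.42 (SE 0.19). With TPM as deposited or set by epithelial reference genes the DSS controls lay above all water controls, and with TPM rescaled to one common total the labelled-knockout mice given DSS lay above theirs. The listed *Stat3* transcript is 1 of 14 annotated for the gene. Of its 31-base words, 1.36% occur in no other annotated transcript of the gene, so this level depends on how reads were shared among isoforms. Words shared with other genes were not searched. For *Socs3* that share is 92.0%, for *Il4ra* 32.3%, for *Il17rc* 20.4% and for *Il10rb* 0.659%.

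*Il10rb*, the shared IL-10 and IL-22 chain, was 1 of the most abundant of these receptors. It had 31.7, 35.2, 39.3 and 31.9 rescaled TPM in water controls and 38.0, 27.0 and 25.2 in DSS controls, which overlapped. In the mice labelled knockout the DSS values of 30.1, 30.5, 27.1 and 27.35 all lay below the water values of 32.4, 40.7, 39.3, 38.7 and 36.9. The log2 difference of -0.37 (SE 0.07) in these mice went with overlap under every other scaling, at -0.02 with TPM as deposited, -0.20 with quantile normalization, -0.06 with epithelial reference genes, and 0.19, the other direction, with TPM rescaled to one common total. In controls it was -0.21 (SE 0.19), and 0.14 with TPM as deposited. Rescaling to one common total moved the median over the 11210 genes that passed the 1 TPM minimum to 0.51, and relative to that median *Il10rb* lay at -0.32. *Il22ra1*, the chain that confines IL-22 responses to epithelia and a few other tissues, was much less abundant. Its group means were 4.49 ± 0.761 and 3.82 ± 0.847 in water (controls and labelled knockout) and 3.67 ± 0.928 and 3.21 ± 1.13 after DSS, with overlap of the mice in both genotypes (log2 differences -0.24, SE 0.21, and -0.21, SE 0.23). Their sign turned under scalings that moved all genes (0.05 and 0.07 with TPM as deposited), and relative to the median over all genes they stayed between -0.28 and -0.25 in controls and between -0.26 and -0.21 in the mice labelled knockout.

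For the IL-17 receptor, the abundant chain was *Il17rc*. Its level was 22.7, 22.4, 17.5 and 19.4 rescaled TPM in water controls and 6.65, 7.56 and 19.2 in DSS controls. DSS control 3, of cage c, thus lay among the water mice while the other two lay far below them. Among labelled-knockout mice the DSS values of 12.1, 7.02, 7.13 and 9.82 lay below all water values (25.5, 15.7, 21.7, 24.5 and 16.2). The log2 difference was -0.96 (SE 0.45) in controls, -1.12 (SE 0.22) in the mice labelled knockout, and -1.40 and -1.26 with the DSS mice of cage d alone, a comparison added after the values had been seen. Over the scalings it stayed between -1.20 and -0.60 in both genotypes, but the mice labelled knockout overlapped with TPM as deposited (-0.79) or rescaled to one common total (-0.60). *Il17ra*, the chain shared by most IL-17 cytokines, was below 1 TPM in every mouse (at most 0.729 rescaled TPM) and listed at 0 in 3 of the 5 water mice labelled knockout. *Il1r1*, the signalling receptor for IL-1, was listed at 0 in 13 of the 16 mice and at 0.379, 0.394759 and 0.329867 rescaled TPM in the other 3 mice. No fold is given for these genes.

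*Il6st*, the gp130 gene, has 3 listed transcripts, of which 1 was at or near 0 in all mice. It had 13.9, 14.3, 16.4 and 18.1 rescaled TPM in water controls and 15.5, 10.1 and 9.07 in DSS controls. Among labelled-knockout mice it had 12.5, 9.28, 9.24, 19.0 and 12.7 in water and 11.3, 15.6, 17.6 and 11.5 after DSS. The mice overlapped in both genotypes, with a log2 difference of -0.44 (SE 0.23) in controls and 0.17 (SE 0.23) in the mice labelled knockout. The latter was 0.51 with TPM as deposited and 0.72, without overlap, with TPM rescaled to one common total, and between 0.12 and 0.21 relative to the median over all genes. In the mice labelled knockout, the less abundant expressed transcript had 1.69 to 3.41 TPM as deposited in water and 5.49 to 8.82 after DSS. In controls it had 3.60 to 4.17 and 3.37 to 7.77, with overlap, and the more abundant transcript overlapped in both genotypes. Of their 31-base words, 37.6% and 0.406% occur in no other annotated transcript of the gene.

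*Il4ra*, which is also carried by many leukocytes, had 6.59, 7.99, 4.21 and 8.05 rescaled TPM in water controls and 3.22, 2.14 and 2.75 in DSS controls. The DSS controls lay below all water controls (0.402 times the mean, log2 difference -1.04, SE 0.22), and the difference was -0.81, with overlap of the mice, when levels were set by epithelial reference genes such as *Epcam* and *Cdh1*. In the mice labelled knockout the values of 3.77, 2.97, 4.54, 5.23 and 6.11 in water and 5.14, 3.93, 3.53 and 3.89 after DSS overlapped, with a log2 difference of -0.09 (SE 0.17) that was between 0.03 and 0.41 under the other scalings and, relative to the median over all genes, between -0.14 and -0.08 under all 5. Leukocyte and macrophage markers were lower after DSS in both genotypes, and their part in the *Il4ra* level was not tested. *Il13ra1*, its partner, had 28.9, 29.3, 31.8 and 27.1 rescaled TPM in water controls and 44.7, 38.5 and 29.9 in DSS controls, which overlapped through DSS control 3. Among labelled-knockout mice it had 25.3, 28.4, 32.9, 26.1 and 35.60 in water and 35.9, 41.1, 42.2 and 35.61 after DSS. All 4 lay above the water mice, the lowest of them barely (35.61 against 35.60). The log2 difference was 0.34 (SE 0.17) in controls and 0.38 (SE 0.11) in the mice labelled knockout, and it was positive under every scaling tried. Controls did not overlap with TPM as deposited (0.69), rescaled to one common total (0.55), quantile normalized (0.49) or ranked, nor with females alone (0.39).

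Counted over the 10 genes, 2 were lower after DSS without overlap in controls (*Socs3* and *Il4ra*) and 0 higher. Among labelled-knockout mice 3 were lower (*Socs3*, *Il17rc* and *Il10rb*) and 1 higher (*Il13ra1*). Of all 11210 genes, 14.3% were lower and 10.2% higher without overlap in controls, and 18.1% and 17.3% in the mice labelled knockout, so the counts are close to those shares. Taking all 16 mice, *Socs3* alone of the 10 was lower without overlap, as were 7.05% of all genes, and none was higher (4.39%). This call was kept with the smaller pseudocount and lost under each of the other scalings, with a log2 difference of -1.35 to -1.19 against -1.59, while *Il13ra1* was higher without overlap with TPM as deposited or rescaled to one common total. With females alone, 3 genes were lower in controls (20.8% of all genes) and 1 higher (17.6%), and 3 lower (23.3%) and 1 higher (21.5%) in labelled-knockout mice. With the DSS mice of cage d alone, 3 were lower (26.4%) and 2 higher (24.5%) in controls, and 3 lower (20.9%) and 1 higher (20%) in labelled-knockout mice. Among the genes at 5 TPM or more on average, the background was 14.1% lower and 10.7% higher in controls, and 21.5% and 19.8% in labelled-knockout mice. The median log2 difference over the 8 genes above 1 TPM was -0.34 in controls and -0.15 in the mice labelled knockout, beside 0.01 and -0.01 over all genes.

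**Figure D3:**
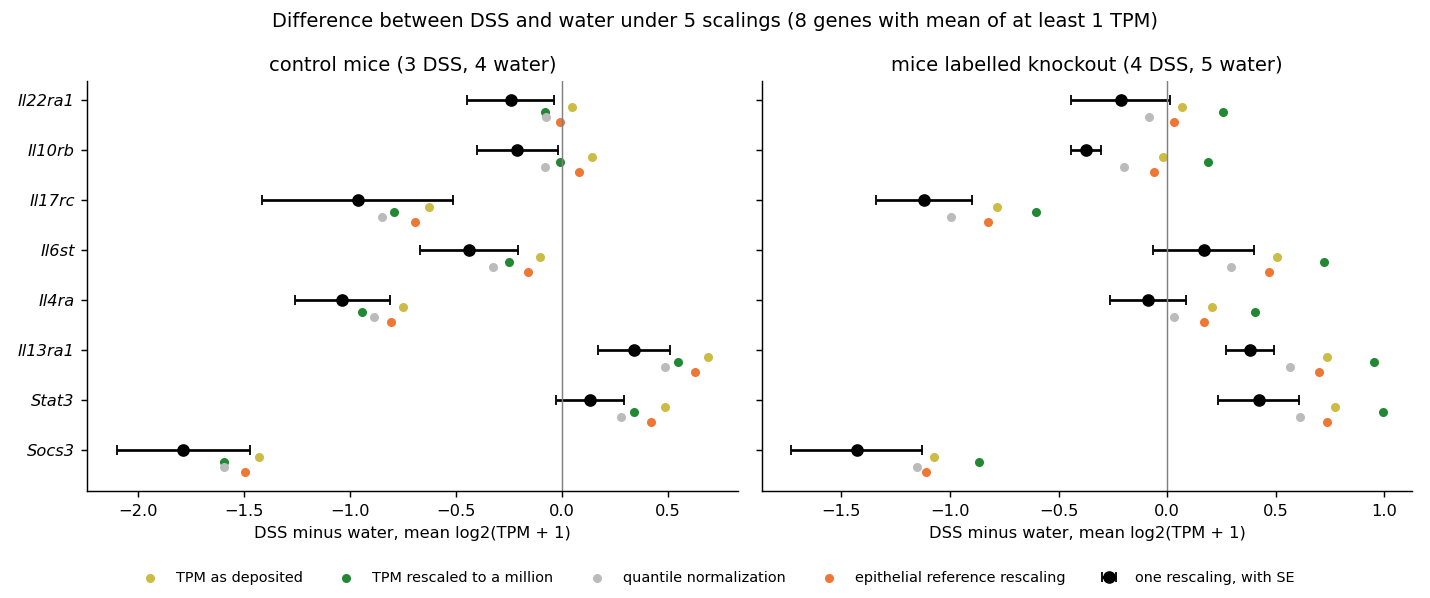
DSS minus water difference in mean log2(TPM + 1) for 8 genes, in controls and in mice labelled knockout, with the SE over mice (black) and the value under 4 other scalings (coloured points). *Socs3* and *Il17rc* lie below 0 and *Il13ra1* and *Stat3* above 0 under all 5 scalings in both panels, while *Il22ra1* and *Il10rb* lie on either side of 0.

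Genotypes were compared within each treatment by limma on log2(TPM + 1) as deposited. A gene was called at a Benjamini-Hochberg adjusted p under 0.05 over all genes tested. None of the 8 genes was called after DSS, in water or for the difference between the 2 genotype effects. At an unadjusted p under 0.05, 1 of 8 passed after DSS, 0 in water and 1 for the difference of effects (*Il4ra* in both cases), and 0 of 10 by exact permutation of the mice in either treatment. Among all genes 1 was called in each fit (0.00918%, 0.00905% and 0.00889%), and 2.65%, 5.28% and 4.18% had an unadjusted p under 0.05. The median log2 difference over the 8 genes was 0.09 after DSS and -0.17 in water, beside 0.02 and 0.00149 over all genes tested.

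*Il4ra* had the largest genotype difference of the 8 in both treatments, in opposite directions. After DSS the controls had 3.69, 2.44 and 3.42 TPM as deposited, and the mice labelled knockout 6.18, 4.67, 4.15 and 4.59. All 4 labelled knockout were above all 3 controls, as were 2.13% of all genes (1.55% were below). The log2 difference was 0.50 (SE 0.20, 95% interval 0.04 to 0.96; limma p = 0.0376, adjusted p = 1.00; exact two-sided permutation p = 0.0571, with 0.0286 the smallest that 35 splits allow). In water the controls had 6.13, 7.27, 3.83 and 7.31 TPM and the mice labelled knockout 3.52, 2.72, 4.28, 4.70 and 5.59. These groups overlapped, as did those of the other 9 genes in water (0.67% of all genes were higher and 0.878% lower without overlap), and the log2 difference was -0.46 (SE 0.22, 95% interval -0.96 to 0.04; limma adjusted p = 0.865; exact permutation p = 0.0794 over 126 splits). The difference between the effects, itself a contrast of 2 within-table differences, was 0.96 (SE 0.31, 95% interval 0.30 to 1.61; limma adjusted p = 0.949), and leaving out single mice kept it between 0.82 and 1.13. Within cages the genotype difference was -0.52 in a, -0.51 in b, 0.70 in c (1 mouse a genotype) and 0.44 in d. It thus had the same direction in both cages of each treatment, and it did not pass the correction over all genes.

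The other genes gave smaller genotype differences with intervals that reached both sides of 0. For *Il6st* the log2 difference was 0.28 (SE 0.22) after DSS and -0.33 (SE 0.19) in water, and the difference between them was 0.61 (95% interval -0.04 to 1.26; limma adjusted p = 0.949). For *Socs3* it was 0.12 (95% interval -0.53 to 0.78) after DSS and -0.24 (-0.86 to 0.39) in water, where it came to 0.01 when water mouse 2 labelled knockout was left out. For *Stat3* it was 0.13 (-0.31 to 0.56) and -0.16 (-0.54 to 0.21). *Il17rc* had the widest interval after DSS, from -1.05 to 0.74 around -0.15, which leaves changes of up to about that size undetectable with 3 and 4 mice. *Il10rb* was the most tightly measured in water, at 0.13 (-0.09 to 0.36), and stood at -0.03 (-0.38 to 0.32) after DSS. For *Il13ra1* the values were 0.06 and 0.02, and for *Il22ra1* -0.17 and -0.19.

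**Figure D4:**
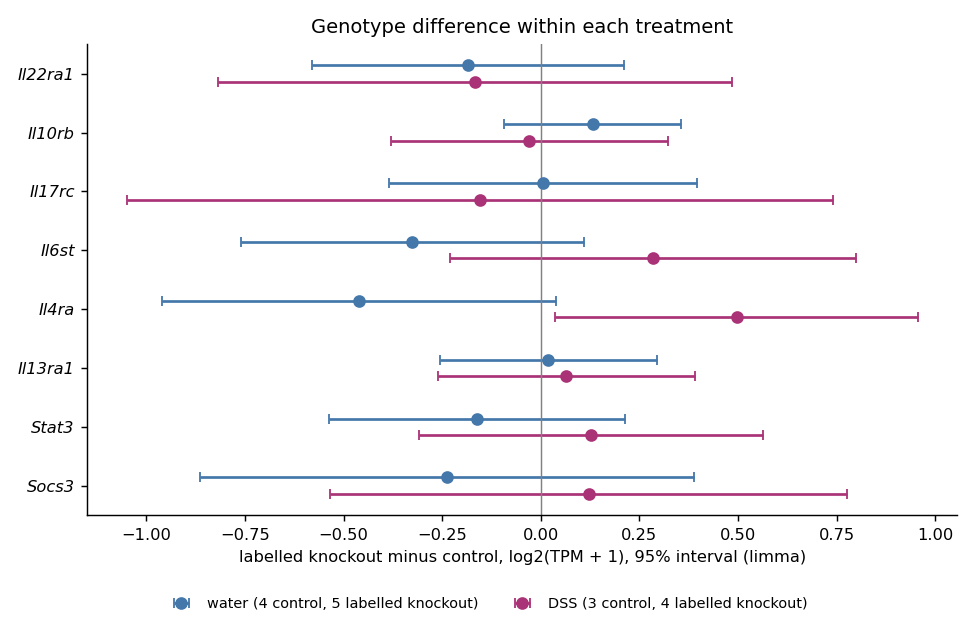
Log2 difference between mice labelled knockout and controls (points) with limma's 95% interval (bars) for 8 genes, in water and after DSS. The interval for *Il4ra* after DSS, 0.04 to 0.96, was the one that did not reach 0, and no gene was called after adjustment over all genes.

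The 2 DSS cages differed in several of these genes whatever the genotype. The mice of cage c (DSS control 3 and DSS mouse 1 labelled knockout) were above all 5 mice of cage d in *Il22ra1* (4.23 and 4.50 against at most 4.19 rescaled TPM), *Il17rc* (19.2 and 12.1 against at most 9.82), *Stat3* (39.3 and 44.8 against at most 38.6) and *Socs3* (41.1 and 42.8 against at most 36.3), and below them in *Il17ra*. Of all genes, 12.7% were above and 12.7% below without overlap. The margins were small for *Il22ra1* and *Stat3* and larger for *Il17rc*. Between the water cages, which differ in sex, none of the 10 genes separated, as against 0.797% of all genes higher and 1% lower in cage a. With cage as a term in the fits, 0 of the 8 genes were called in either treatment.

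The other genes of these pathways were taken as 7 lists with 128 entries, of which 101 had a mean of at least 1 rescaled TPM over all mice. For genotype 0 entries were called after DSS (of 95 tested), in water (of 98) or for the difference of effects (of 101), by limma. At an unadjusted p under 0.05, 4, 3 and 7 passed, close to the 2.65%, 5.28% and 4.18% of all genes. Between treatments, 11 entries were higher and 27 lower after DSS without overlap in controls, and 17 and 27 in the mice labelled knockout, beside 10.2% and 14.3% of all genes in controls and 17.3% and 18.1% in the mice labelled knockout. The counts of higher entries are near those shares.

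Of the ligands, 10 of 21 were tested, and 0 were higher and 2 lower after DSS in controls (median log2 difference -0.56), beside 10.2% and 14.3% of all genes. Among labelled-knockout mice 2 were higher (*Il11* and *Lif*, both IL-6 family cytokines) and 4 lower, with a median of 0.10, beside 17.3% and 18.1% of all genes. *Il10*, the anti-inflammatory cytokine, stood at 18.3 ± 2.42 rescaled TPM in water controls and 0.560 ± 0.294 in DSS controls. *Osm*, an IL-6 family cytokine of myeloid cells, stood at 8.27 ± 1.43 and 0.942 ± 1.26. Both were lower in the mice labelled knockout too. *Il22*, *Il17a* and *Il17f* were under the minimum, with means of 0.459, 0.357 and 0.235 in water controls.

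Among the other receptors, 8 of 17 tested were lower and 0 higher in each genotype, with 6 lower in both (median -0.85 in controls and -0.75 in the mice labelled knockout), beside 14.3% and 18.1% of all genes lower. *Il10ra*, the partner of *Il10rb* in the IL-10 receptor, was at 10.1 ± 3.502 rescaled TPM in water controls and 0.309 ± 0.535 in DSS controls. *Il2rg*, the common gamma chain of lymphoid cytokine receptors, was at 24.4 ± 12.1 and 1.79 ± 1.16, and *Csf2rb*, the common beta chain of myeloid ones, at 10.9 ± 2.97 and 2.98 ± 4.17. These receptor genes are known from blood cells, and the leukocyte markers differed in the same direction. Their part was not tested.

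Among kinases and adaptors, 4 of 14 were lower and 0 higher in controls (14.3% and 10.2% of all genes), and 3 lower and 2 higher in the mice labelled knockout (18.1% and 17.3%). Of the 4 lower without overlap in controls, the furthest apart were *Irs2*, a docking protein (19.1 ± 1.94 and 8.79 ± 2.56), *Grb2* (28.0 ± 3.41 and 16.7 ± 1.23) and *Myd88*, the adaptor of IL-1 and Toll-like receptors (32.8 ± 1.22 and 22.1 ± 2.04). *Myd88* overlapped in the mice labelled knockout. *Shc1* differed by 1.07 in log2 in controls, higher after DSS, but its mice overlapped. Of the 6 other STAT genes, *Stat5a* (3.80 ± 1.68 and 1.07 ± 1.00) and *Stat5b* (7.18 ± 1.47 and 3.97 ± 1.05) were lower in controls and none higher (14.3% and 10.2% of all genes), and *Stat4* and *Stat5b* were lower in the mice labelled knockout and none higher (18.1% and 17.3%), where *Stat5a* overlapped. Of the 18 inhibitors, 3 were lower and 1 higher in controls, and 2 lower and 3 higher in the mice labelled knockout, counts near the shares over all genes. In controls *Cish*, a SOCS family member, was lower (6.91 ± 2.04 and 2.33 ± 1.38), as was *Sigirr*, a brake on IL-1 receptor signalling (12.5 ± 2.79 and 6.32 ± 3.30), whereas *Socs4* was higher (4.44 ± 0.912 and 8.16 ± 2.44). Among labelled-knockout mice *Cish* was lower and *Socs4* and *Socs6* higher after DSS, and *Sigirr* overlapped.

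The list of genes that respond to STAT3, IL-22 or IL-17 had 9 of 30 higher and 6 lower in controls, where 10.2% of all genes were higher and 14.3% lower. Of the same list, 10 were higher and 5 lower in the mice labelled knockout, beside 17.3% and 18.1% of all genes. The counts of lower genes are near those shares. *Reg3b*, an antimicrobial lectin, was at 0.971 ± 1.54 rescaled TPM in water controls and 431 ± 478 in DSS controls, and was listed at 0 in all 5 water mice labelled knockout. *Reg3g*, its relative, was at 1.19 ± 1.13 and 146 ± 141, and *S100a8*, a calprotectin subunit, at 2.22 ± 3.21 and 309.7 ± 417. The spread among DSS controls was close to the mean or above it. *S100a8* and *S100a9* also stand in the neutrophil list, whose sum was highest in DSS control 1 (1746), the mouse with the highest *S100a8* (787). The 6 lower genes in controls, named after their values were seen, were *Pim1* (69.8 ± 21.0 and 17.4 ± 6.77), *Junb* (581 ± 80.6 and 224 ± 184), *Cebpd* (15.7 ± 4.35 and 7.38 ± 4.73), *Mcl1*, *Fos* and *Bcl2l1*, which encode a kinase, transcription factors and survival proteins. Of these 6, *Fos* and *Mcl1* overlapped in the mice labelled knockout.

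Of the 6 STAT6 responsive genes tested, 2 were lower in controls (14.3% of all genes), both goblet-cell secretory genes. *Clca1* was at 746 ± 616 and 133 ± 46.2, and *Fcgbp* at 268 ± 137 and 69.0 ± 43.3. In the mice labelled knockout 3 were lower and 0 higher (18.1% and 17.3% of all genes).

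**Figure D5:**
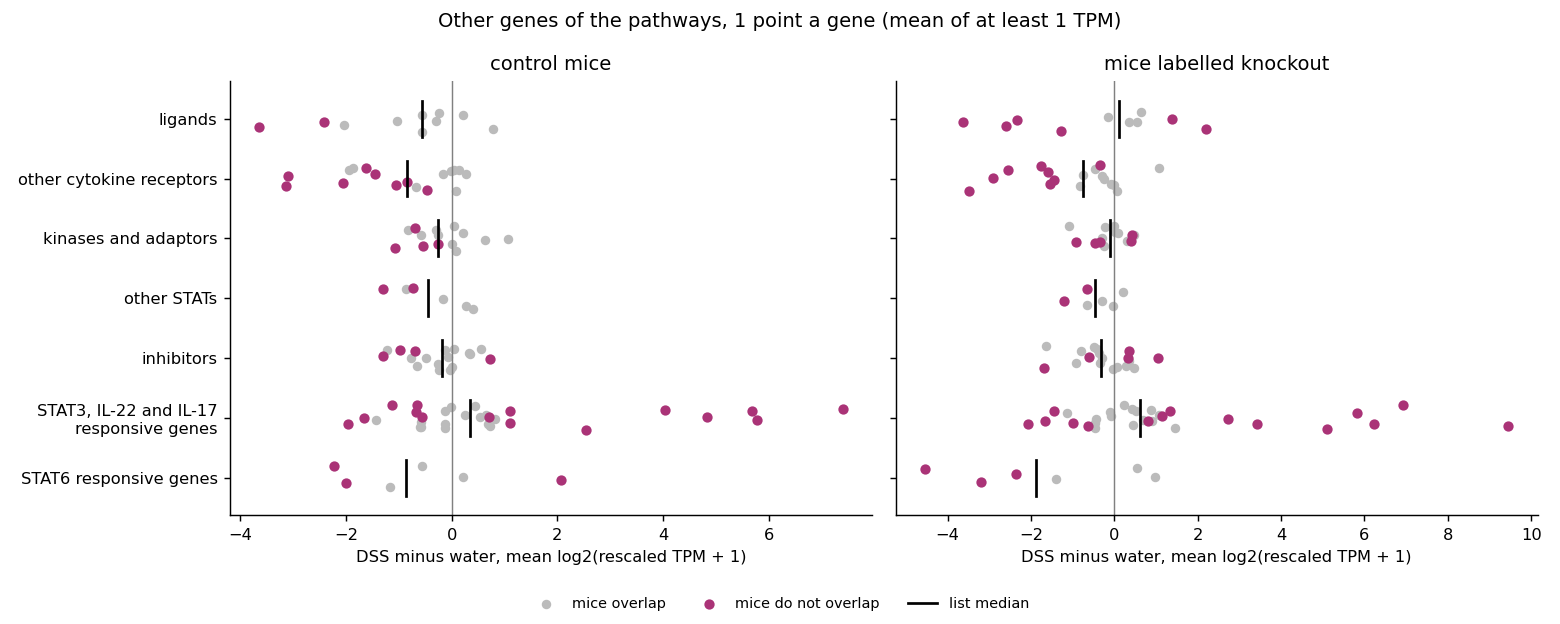
DSS minus water difference in mean log2(rescaled TPM + 1) for the 101 tested entries of 7 pathway lists, with 1 point a gene, coloured where the mice of the groups did not overlap, and the list median as a black bar. The other cytokine receptors lie mostly below 0 (median -0.85 in controls), and the STAT3, IL-22 and IL-17 responsive genes reach from -1.96 to 7.40 in controls.

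Across the 16 mice, after removing the 4 group means from log2(rescaled TPM + 1), the genes that varied most like *Stat3* among the 7279 genes at 5 TPM or more on average were *Kat5*, a histone acetyltransferase (Pearson r 0.90), *Map2k5*, a kinase (0.89), and *Atp6v0b*, a proton pump subunit (0.88). For *Socs3* they were *Tubgcp3*, of the gamma-tubulin complex (0.90), *Flot1*, a membrane raft protein (0.87), and *Itgb5*, an integrin (0.85). They were picked as the highest of 7279 and mice share cages, so the values are a description. *Stat3* and *Socs3* followed each other less closely (r 0.43, Spearman's rho 0.34), and *Stat3* varied with *Il17rc* at r 0.56 and with *Il13ra1* at r -0.40.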

How the data were processed

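Libraries of sorted EpCAM+ cells from 16 mice were read as single reads of 75 bases. The authors quantified transcripts with kallisto and tested genotype within a treatment with sleuth; mm10 is named in the submitters' processing notes, and the transcript release is not given in the sources used here. They deposited TPM per transcript and mouse in 2 tables, scaled separately. From the values, only APPRIS principal transcripts are listed. The deposited p-values, q-values, mean log count and log2 ratio of genotypes are the authors' comparisons and were not used. Lines repeated with equal values (385 of 29373 in each table) were dropped.

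TPM was summed per gene symbol. Genotypes were compared by limma 3.58.1 (R 4.3.3; eBayes with trend) on log2(TPM + 1), keeping genes whose average reached 1 TPM and adjusting p by Benjamini-Hochberg, and, for single genes, by two-sided exact permutation. The fold change understates low genes because of the pseudocount. Between treatments, 1 median-of-ratios rescaling of all mice over 9371 genes gave factors of 0.899 to 0.942 in water and 1.14 to 1.24 after DSS; differences of group means of log2(rescaled TPM + 1) are given without test. Mice "did not overlap" where all of one group lay above all of the other. Depth is not given by TPM, and the number of mice sets the precision. Fits were tested on simulated data. Alternatives were other pseudocounts, filters and scalings, cage, females alone, a replicate block, and leaving out each mouse. A rule named the 10 genes, *Tnfrsf1b*, up to 3 genes of each list with the largest non-overlapping difference in controls, and the 3 most like *Stat3* and *Socs3*. Further genes of the lists and markers were named outside it, among them *Il11*, *Lif*, *Stat4*, *Socs6*, *Il22* and *S100a9*. A gene of the STAT6 responsive list that this rule names is not reported here. The 10 genes and all lists were chosen with earlier results of these data known. Python 3.11.15, numpy 2.4.6, pandas 2.3.3, scipy 1.17.1 and matplotlib 3.10.9 were used; gene models are from GENCODE M21 on GRCm38.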

Additional observations from a re-analysis of the deposited data

Results flagged for a closer look

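*Il1r1* stood out in 2 groups because a single mouse had a value and the others of its group were listed at 0. In the water mice labelled knockout this was replicate 5, at 0.394759 rescaled TPM, and in the DSS mice labelled knockout replicate 3, at 0.329867. The remaining value, 0.379 in DSS control 2, lies in a group of 3, which is too small for this check. The check was made on 29 groups of 4 or 5 mice, and chance picks out about 1 in 20. All 3 values are far below 1 TPM. The paper gives an approximate number of reads per sample, but the exact depth of each mouse is unknown.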

How the results depend on the processing

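No call of a single gene among the 8 changed under any alternative: adjusted p stayed at or above 0.698 in every limma fit, and the *Il4ra* difference between genotype effects stayed between 0.82 and 1.16. The number of genes called among all genes was 1 in each fit. After DSS it was 0 with a pseudocount of 0.1 or with all genes above 0, in water 0 with a pseudocount of 0.1 or a mean of at least 5 TPM and 4 with all genes above 0, and for the difference of effects 0 with at least 5 TPM and 2 after rescaling. Leaving out each mouse gave 0 to 3 after DSS (3 without control 1, 2 without control 3, and 0 without control 2 or labelled-knockout mouse 1, 2 or 3), 1 to 2 in water (2 without control 1 or 3 or labelled-knockout mouse 1) and 1 to 3 for the difference of effects (3 without water labelled-knockout mouse 5, 2 without DSS control 1 or DSS labelled-knockout mouse 4); the cause was not tested. With the replicate number as a block, the count was 0 in each of the 3 fits and none of the 8 genes was called. The numbers did not pair the mice, since deviations of same-numbered mice correlated at -0.20 to 0.09.

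Between treatments, the count of genes higher after DSS in controls was 0, and it was 2 with TPM as deposited (*Il13ra1* and *Stat3*), 1 with TPM rescaled to one common total, quantile normalization, percentile rank, epithelial reference genes or females alone, and 2 with the DSS mice of cage d alone, added after seeing the data. Leaving out each mouse gave 0 to 2 higher (2 without DSS control 3, 1 without water control 3) and 2 to 4 lower (4 without DSS control 1). The count of lower genes, 2, was 1 with the epithelial reference. In the mice labelled knockout the count of higher genes, 1, was 4 with TPM rescaled to one common total and 2 with quantile normalization or percentile rank (1 to 3 with each mouse left out, 3 without water mouse 4 labelled knockout), and the count of lower genes, 3, was 0 with TPM as deposited or rescaled to one common total and 1 with quantile normalization or percentile rank. *Il10rb* reversed to 0.190135 in these mice with TPM rescaled to one common total. These scalings moved the median of all genes by up to 0.51, and relative to that median *Socs3* stayed between -1.79 and -1.32 in both genotypes. Using the highest of the 3 *Il6st* transcripts alone gave 10.6 TPM as deposited in water controls and 8.08 in DSS controls, against 14.3 and 13.5 for the sum.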
